A study of Homo sapiens with 34 samples.

Results

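Heparanases, syndecans, glypicans and the extracellular sulfatase SULF2 were followed as a set of 10 genes in cultured prostate cells: HPSE, HPSE2, SDC1, SDC2, SDC4, GPC1, GPC3, GPC4, GPC6 and SULF2. All 10 symbols were found among the 26336 rows of the count table. They were chosen by symbol with earlier results of these data known, and HPSE2 was included because its level was lower in MDAPCa2a cells on amorphous calcium phosphate (ACP), so that difference is described here and not tested. The series measured polyadenylated RNA in 34 libraries of 17 groups from 4 human prostate lines: RWPE, a non-tumorigenic epithelial line; LNCaP, from a lymph node metastasis; and VCaP and MDAPCa2a, both from bone metastases. Cells grew on plastic or on an ACP coating, a mineral surface used as a model of bone, for 4 days by the protocol. The control medium was the medium of each line, which for RWPE was a keratinocyte medium with EGF and bovine pituitary extract and for the other lines held fetal bovine serum. The other media held charcoal-dextran stripped serum, without or with an androgen that the sample titles call DHT and the treatment labels call testosterone, in both cases at a labelled 100 mM. LNCaP and VCaP had plastic control, plastic stripped, ACP control, ACP stripped and ACP androgen groups; RWPE had plastic control, ACP control and ACP androgen groups; MDAPCa2a had plastic control, plastic stripped, ACP stripped and ACP androgen groups. There were 15 groups of 2 libraries, 1 group of 3 (RWPE ACP androgen) and 1 single library (VCaP plastic stripped). Each line is a single established line, and the labels do not say whether replicate libraries came from separate cultures, so p-values measure the spread between these libraries, which may be technical.

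Heparan sulfate is a long sulfated sugar chain that cells attach to a small number of core proteins. Syndecans are core proteins that span the membrane, and glypicans are held to its outer face by a lipid anchor. Through their chains both bind growth factors and matrix, and act as co-receptors. Heparanase, the product of HPSE, is the enzyme that cuts the chains outside the cell and in lysosomes. HPSE2 encodes heparanase 2, a relative without that enzyme activity that binds heparan sulfate and can inhibit heparanase. SULF2 removes particular sulfate groups from finished chains at the cell surface and so alters which ligands they hold.

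Promoter sequences are shown for the heparanase pair, whose levels lay in different lines, and for GPC6, the glypican with the largest androgen differences. RefSeq (GRCh38.p14) start sites were found for 8 of the 10 genes, and the 250 bases before the first listed start are given 5′ to 3′ on the strand of the gene. Capitals mark a GC box, searched as GGGCGG on both strands. HPSE2 lies on the minus strand of chromosome 10 (chr10:99235876-99236125), HPSE on the minus strand of chromosome 4 (chr4:83335154-83335403) and GPC6 on the plus strand of chromosome 13 (chr13:93226557-93226806).
HPSE2: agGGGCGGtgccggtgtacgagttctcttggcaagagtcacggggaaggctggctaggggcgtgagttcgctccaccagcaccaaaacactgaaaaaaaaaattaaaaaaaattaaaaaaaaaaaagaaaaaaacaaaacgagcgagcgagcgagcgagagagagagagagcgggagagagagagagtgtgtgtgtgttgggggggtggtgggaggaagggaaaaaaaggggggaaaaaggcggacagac
HPSE: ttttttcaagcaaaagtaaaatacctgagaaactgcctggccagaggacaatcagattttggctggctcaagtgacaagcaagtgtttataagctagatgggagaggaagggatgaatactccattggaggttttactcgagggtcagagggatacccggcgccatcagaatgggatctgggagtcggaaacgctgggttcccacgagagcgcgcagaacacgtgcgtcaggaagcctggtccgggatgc
GPC6: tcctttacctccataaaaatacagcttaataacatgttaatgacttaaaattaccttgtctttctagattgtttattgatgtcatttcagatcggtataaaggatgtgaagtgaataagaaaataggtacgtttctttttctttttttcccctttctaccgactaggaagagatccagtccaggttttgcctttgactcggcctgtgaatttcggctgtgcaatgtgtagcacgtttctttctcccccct
The HPSE2 window held 1 GC box and the HPSE and GPC6 windows held 0, where 42.3% of 27305 promoters of that length held at least 1. A TATA box, searched as TATAAA on both strands, was present in the HPSE and GPC6 windows and in 11.1% of all promoters. The GPC6 window was 37.6% G and C, against 50.4% for HPSE2, 51.6% for HPSE and a median of 58.0% over all promoters. The palindromic androgen response element, searched as AGAACA and TGTTCT with 3 bases between them, was in 0 of the 8 windows and in 0.00366% of all of them. These matches describe letters and not binding.

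Library totals ran from 15440141 to 44779246 counted reads. Levels below are CPM, read counts relative to library sizes scaled by the trimmed mean of M values, and differences are log2 fold changes with their standard errors from edgeR's quasi-likelihood test, with Benjamini-Hochberg adjusted p-values over all genes tested and a threshold of 0.05. Lineage markers followed the labels: the basal keratin KRT5 was at 2348 to 10152 CPM in RWPE and at most 13.0 CPM in the other lines, and the luminal protease KLK3 was at 36.1 CPM or more in every LNCaP, VCaP and MDAPCa2a library and at most 19.1 CPM in RWPE. ERG was at 126 to 882 CPM in VCaP and at most 2.32 CPM elsewhere. Lists of other cell types summed to at most 395 CPM for hepatocyte, 163 CPM for fibroblast and 36.6 CPM for endothelial markers; lymphoid markers summed to at most 19.3 CPM except in MDAPCa2a, at 1441 to 3607 CPM, nearly all from HLA-DRA and with CD3E at 0. The 8 plastic control libraries stood apart: the liver transcript FGG was at 1.41 to 2.84 CPM in each of them and at most 0.0323 CPM in the other 26. Their time label is also different, so in any comparison with plastic control the condition and whatever sets these libraries apart cannot be told apart. On plastic MDAPCa2a cells also had a protein coating that was not used on ACP, so surface and coating changed together in that line. In bulk RNA, fewer cells with a transcript and less RNA per cell cannot be told apart. Where groups or lines are said not to overlap, the share of all genes that do so was not computed. Such statements describe the libraries and are no support for a difference.

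HPSE2 was a transcript of MDAPCa2a, and its level there was lower in every ACP library than in every plastic library. The plastic control libraries held 79.4 and 56.5 CPM and the plastic stripped libraries 68.1 and 94.1 CPM. The ACP stripped libraries held 5.09 and 9.93 CPM and the ACP androgen libraries 8.37 and 9.14 CPM. The 4 plastic and 4 ACP libraries did not overlap, while on either surface the media overlapped. In the stripped medium, the contrast that chose the gene, the group means were 81.1 ± 18.4 CPM on plastic and 7.51 ± 3.42 CPM on ACP (SD, n = 2), a log2 fold change of -3.35 (SE 0.32). It was between -3.89 and -2.99 when each of the 4 libraries was left out in turn. By edgeR HPSE2 was the 1 gene of 13626 past the threshold in that contrast (0.00734% called), where DESeq2 called 213 genes; the contrast chose the gene and is no support for it.

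The MDAPCa2a plastic control and ACP androgen libraries also differ in surface, so their HPSE2 values are likewise a description. HPSE2 averaged 67.9 ± 16.2 CPM in plastic control and 8.75 ± 0.549 CPM in ACP androgen (SD, n = 2), a log2 fold change of -2.88 (SE 0.31). In that comparison 0.47% of all genes were called and 0.235% were called lower. Surface, coating, serum and androgen all changed between these groups, and the plastic control libraries are those that stand apart, so the comparison assigns the fall to none of them. The log2 fold change was -2.64 without plastic control replicate 1, -2.82 without ACP androgen replicate 1 and -2.95 without ACP androgen replicate 2. By edgeR the other 8 members did not pass in that comparison, and their log2 differences ran from -0.95 for SULF2 to 1.20 for GPC6. GPC6 passed by DESeq2 (1.19, adjusted p = 0.00605) and by edgeR with no filter on low counts (adjusted p = 0.00519). Of the 10 hepatocyte markers, 10 had reads in MDAPCa2a plastic control and 4 to 6 in the other groups, where FGG was at 0; the list summed to 10.3 to 17.4 CPM in plastic control, 1.25 to 2.82 CPM in plastic stripped and 0.445 to 3.21 CPM on ACP. The luminal list summed to 9832 to 13798 CPM on plastic and 11424 to 17579 CPM on ACP. The part of these lists in the HPSE2 difference was not tested.

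**Figure D1:**
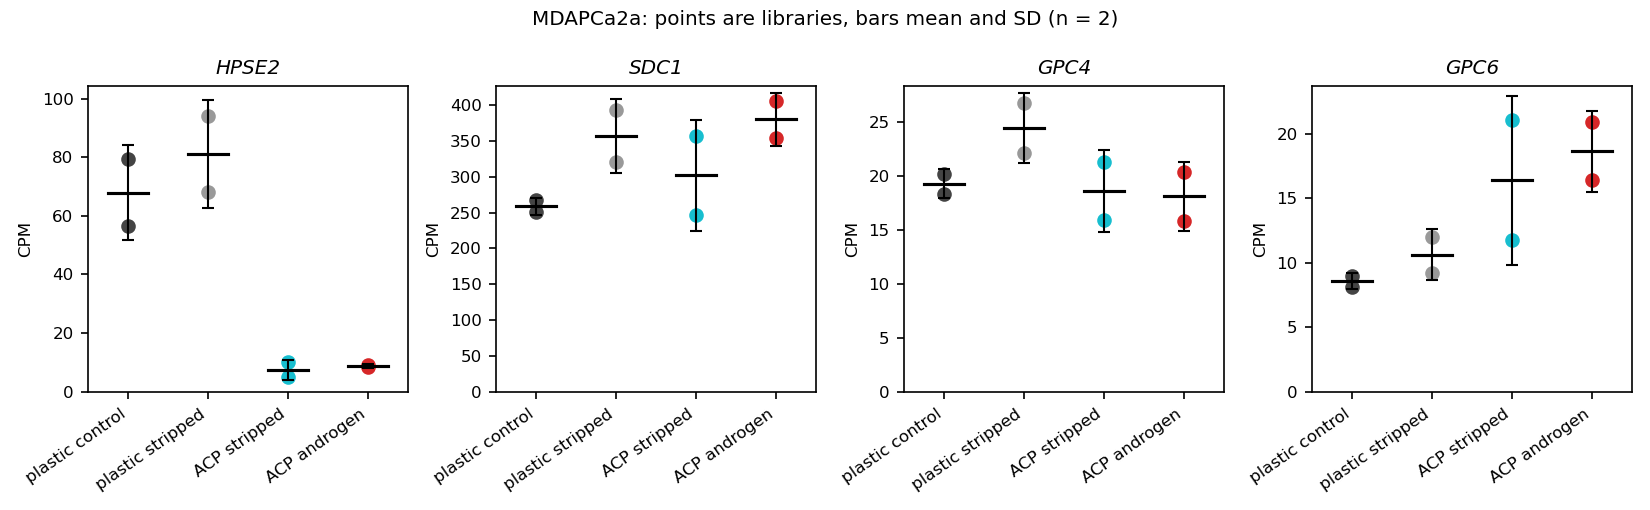
CPM of HPSE2, SDC1, GPC4 and GPC6 (linear vertical axes from 0) in the 4 MDAPCa2a groups. Points are libraries, horizontal bars means and error bars SD (n = 2). The HPSE2 plastic libraries sit between 56.5 and 94.1 CPM and the ACP libraries between 5.09 and 9.93 CPM. The group means run from 259 to 380 CPM for SDC1 and from 18.1 to 24.5 CPM for GPC4.

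Outside MDAPCa2a, HPSE2 was at the edge of detection. Over the RWPE, LNCaP and VCaP groups the highest single library was at 0.228 CPM, and 7 of these 26 libraries held 0 reads. The highest group means in those lines were 0.238%, 0.225% and 0.188% of the highest MDAPCa2a group mean, and whether such reads come from the cells or from other libraries on the same run was not tested. No library of those 3 lines held more than 10 reads of HPSE2, against 80 or more in each MDAPCa2a library. The gene passed the filter on low counts only through MDAPCa2a, so no test of HPSE2 between lines is given.

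HPSE, the active heparanase, was highest in RWPE. RWPE libraries held 22.3 to 28.6 CPM, with 25.6 and 25.2 CPM in plastic control, 26.1 and 28.6 CPM in ACP control and 22.3, 23.9 and 26.4 CPM in ACP androgen. The highest value in any tumour line was 2.17 CPM, in a VCaP ACP stripped library whose partner held 0.390 CPM. LNCaP ran from 0.333 to 1.36 CPM and MDAPCa2a from 0.0807 to 0.697 CPM, the latter from 2 to 21 reads a library. RWPE lay apart from all 3 tumour lines, while LNCaP, VCaP and MDAPCa2a overlapped each other. In plastic control the log2 differences of HPSE from RWPE were -4.99 in LNCaP, -4.18 in VCaP and -6.53 in MDAPCa2a (edgeR adjusted p at most 1.86e-07). No within-line comparison called HPSE: in RWPE it differed by 0.13 (SE 0.17) between ACP and plastic control and by -0.16 (SE 0.15) between ACP androgen and ACP control. The line with the most HPSE2 thus had the lowest median HPSE, at 0.318 CPM against 25.6 CPM in RWPE.

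**Figure D2:**
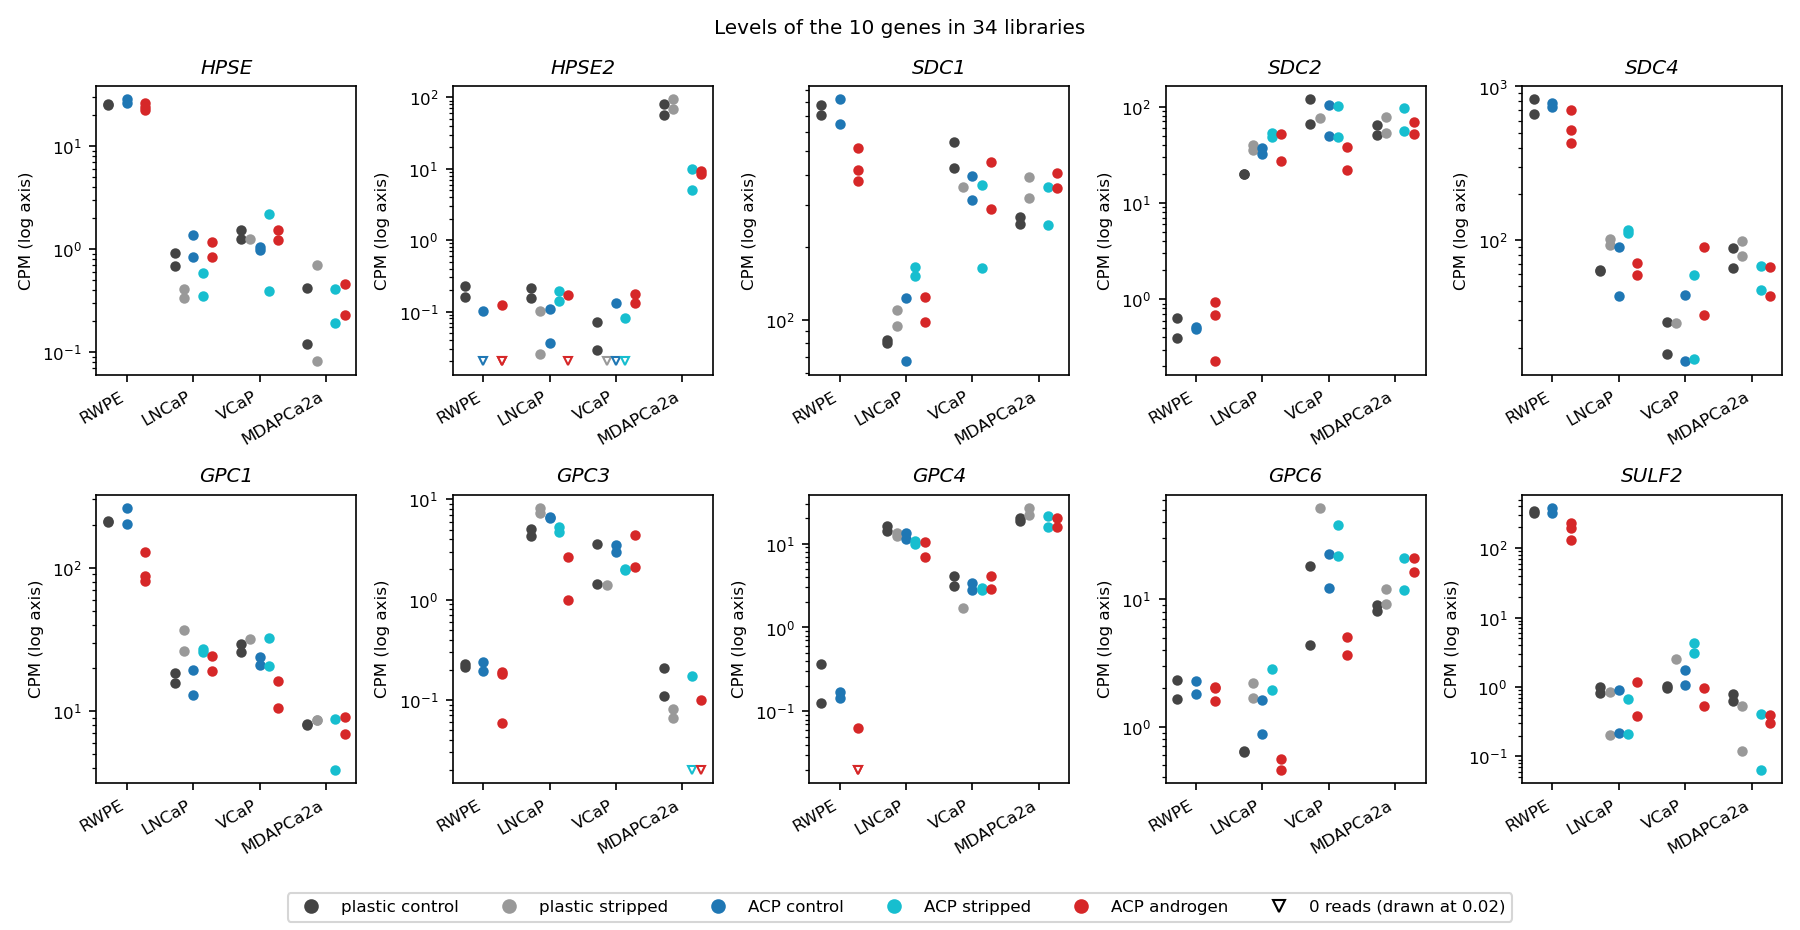
CPM of each of the 10 genes in all 34 libraries, by line, on log axes; colours give surface and medium, and open triangles drawn at 0.02 stand for libraries with 0 reads. HPSE2 is high in MDAPCa2a alone, HPSE and SULF2 in RWPE, and SDC2 and GPC4 are near the bottom of their axes in RWPE.

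SDC1 and SDC4 were present in all 4 lines, and SDC2 was low in RWPE. SDC1, the epithelial syndecan, held 375 to 825 CPM in RWPE, 164 to 545 CPM in VCaP, 247 to 406 CPM in MDAPCa2a and 67.1 to 166 CPM in LNCaP. LNCaP overlapped VCaP by a single pair of libraries, at 166 and 164 CPM, and did not overlap RWPE or MDAPCa2a. In plastic control VCaP was above LNCaP by 2.58 (SE 0.31) and MDAPCa2a by 1.67 (SE 0.30) on the log2 scale, while VCaP and RWPE did not differ past the threshold. SDC4, a widely expressed syndecan of focal adhesions, held 428 to 827 CPM in RWPE and 16.2 to 117 CPM in the tumour lines. The lowest RWPE library was well above the highest tumour library, and the 3 tumour lines overlapped.

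SDC2, known best from mesenchymal cells, ran the other way. RWPE libraries held 0.226 to 0.940 CPM, from 5 to 25 reads each. LNCaP held 19.7 to 52.7 CPM, VCaP 22.0 to 119 CPM and MDAPCa2a 50.3 to 95.8 CPM. Every tumour library was above every RWPE library. In plastic control the log2 differences from RWPE were 5.24 in LNCaP, 7.48 in VCaP and 6.77 in MDAPCa2a (edgeR adjusted p at most 6.63e-09), and VCaP and MDAPCa2a did not differ past the threshold (-0.71, SE 0.39, adjusted p = 0.136). The 2 libraries of a VCaP group lay far apart for SDC2, at 119 and 66.5 CPM in plastic control, 104 and 49.0 CPM in ACP control and 102 and 48.1 CPM in ACP stripped.

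The glypicans differed in the lines where they were high. GPC1, a broadly expressed glypican, held 81.0 to 262 CPM in RWPE, 13.0 to 36.6 CPM in LNCaP, 10.5 to 32.2 CPM in VCaP and 3.88 to 9.14 CPM in MDAPCa2a. The RWPE and MDAPCa2a ranges were apart from all others, and LNCaP and VCaP overlapped. GPC4, a glypican that binds Wnt and other growth factors, held 15.9 to 26.8 CPM in MDAPCa2a, 6.98 to 16 CPM in LNCaP, 1.73 to 4.14 CPM in VCaP and at most 0.371 CPM in RWPE. The first pair overlapped by a single library: in plastic control MDAPCa2a and LNCaP did not differ past the threshold (0.36, SE 0.28, adjusted p = 0.328), and in ACP androgen MDAPCa2a was higher by 1.05 (SE 0.29, adjusted p = 0.00424). That call was lost without LNCaP ACP androgen replicate 1 or MDAPCa2a ACP androgen replicate 2, with an adjusted p of up to 0.08.

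GPC3, an oncofetal glypican of liver, was low throughout. LNCaP held 1.00 to 8.26 CPM and VCaP 1.39 to 4.38 CPM, RWPE held at most 0.238 CPM and MDAPCa2a at most 0.208 CPM. No RWPE library held more than 9 reads of GPC3 and no MDAPCa2a library more than 7. The gene passed the filter on low counts only through LNCaP and VCaP, so no test against RWPE or MDAPCa2a is given. In plastic control LNCaP and VCaP did not differ past the threshold. GPC6, a glypican of mesenchyme and growth plate, held 3.64 to 52.1 CPM in VCaP, 8.12 to 21.0 CPM in MDAPCa2a, 1.59 to 2.31 CPM in RWPE and 0.457 to 2.84 CPM in LNCaP. Both bone metastatic lines lay above every library of the other lines. Of the 10 members, GPC6 was the 1 for which this held, and with 2 such lines the pattern cannot be assigned to the site of origin. GPC6 in VCaP plastic control was itself uneven, at 4.40 and 18.2 CPM.

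SULF2 was a transcript of RWPE, with 132 to 383 CPM against at most 4.24 CPM in VCaP, 1.18 CPM in LNCaP and 0.803 CPM in MDAPCa2a. In plastic control the log2 differences from RWPE were -8.49 in LNCaP, -8.36 in VCaP and -8.85 in MDAPCa2a (edgeR adjusted p at most 2.26e-12). The LNCaP and MDAPCa2a levels were 0.26% and 0.203% of the RWPE level at their highest group, a share at which reads from other libraries on a run were not tested.

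Many genes differed between lines in these data, from 40.2% to 67.4% of all genes tested in a comparison, so the counts of members describe the set and show nothing particular to it. These counts include genes that entered the fit only through the lines where they are high, and whose calls are no support. They are HPSE2 in the counts with MDAPCa2a, GPC4 in those with RWPE, and GPC3 in those of LNCaP or VCaP with RWPE or MDAPCa2a. In plastic control, 9 of 10 members differed between LNCaP and RWPE (57.4% of 17323 genes called), 8 between VCaP and RWPE (62.4%), 9 between MDAPCa2a and RWPE (56.7%), 6 between VCaP and LNCaP (52.6%), 7 between MDAPCa2a and LNCaP (40.2%) and 7 between MDAPCa2a and VCaP (52.4%). In ACP androgen the counts were 9 for LNCaP and RWPE (66.9%), 8 for VCaP and RWPE (67.4%), 8 for MDAPCa2a and RWPE (64%), 3 for VCaP and LNCaP (56%), 6 for MDAPCa2a and LNCaP (45.3%) and 6 for MDAPCa2a and VCaP (51.4%). Against RWPE the same 4 genes, HPSE, SULF2, SDC4 and GPC1, were lower and SDC2 was higher in all 3 tumour lines and in both conditions. GPC4 was above every RWPE library in every tumour library, as a description.

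On a per-length scale the order of the members differed between lines. RPKM values, CPM divided by exon length in kilobases, were computed with GENCODE 29 exon lengths, which are not the authors' annotation. In RWPE the median library held 270 RPKM of SDC4, 181 of SDC1, 48.6 of SULF2, 31.2 of GPC1 and 5.41 of HPSE. In LNCaP SDC4 (30.9 RPKM) and SDC1 (28.9 RPKM) led, followed by SDC2 (7.97 RPKM), and the first pair is closer than the spread between libraries. In VCaP SDC1 led with 101 RPKM, ahead of SDC2 (14.7 RPKM) and SDC4 (11.3 RPKM). In MDAPCa2a SDC1 held 93.8 RPKM, SDC4 25.9, SDC2 13.1 and HPSE2 7.51 RPKM.

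Few members were called between ACP and plastic, at counts near the share of all genes called, so they show nothing particular to the set. Control-medium comparisons use the plastic control libraries, which stand apart. In control medium, 0 of 7 members tested in RWPE passed between ACP and plastic (4.16% of all genes called), 1 of 9 in LNCaP (12.6%) and 0 of 9 in VCaP (0.0448%). At an unadjusted p under 0.05 edgeR had 0 members in RWPE and 0 in VCaP, and DESeq2 called 0 in either. The member called was SDC2 in LNCaP, at 37.1 and 31.9 CPM on ACP against 19.8 and 19.7 CPM on plastic. The libraries did not overlap, and the log2 fold change was 0.91 (SE 0.24, edgeR adjusted p = 0.0356), where 6.74% of all genes were called higher. SDC2 no longer passed without plastic control replicate 1 (log2 0.90, adjusted p = 0.212), plastic control replicate 2 (log2 0.92, adjusted p = 0.178) or ACP control replicate 1 (log2 0.76, adjusted p = 0.183), and in the fit of all 34 libraries. In stripped medium, where no plastic control library enters, edgeR passed 0 of 9 members in LNCaP (6.12% called; 1 member at an unadjusted p under 0.05 and 1 called by DESeq2, SDC1) and 0 of 9 in VCaP (0% of all genes called by edgeR, with 511 at an unadjusted p under 0.05 and 3 called by DESeq2, and 0 members by either measure). SDC2 in LNCaP then stood at 52.7 and 48.8 CPM on ACP and 39.7 and 35.2 CPM on plastic (log2 0.47, SE 0.24, adjusted p = 0.244). Differences in the surface change between lines called 0 of 10 members (0.156% of all genes for LNCaP against RWPE, 0.185% for VCaP against RWPE and 0.0231% for VCaP against LNCaP), with 0 at an unadjusted p under 0.05 and 0 by DESeq2: SDC2 differed by 0.85 (SE 0.80) between LNCaP and RWPE and by -1.08 (SE 0.56) between VCaP and LNCaP. The 10 members of each difference of effects between lines, here and below, include genes that entered the fit only through other lines. They are HPSE2 outside MDAPCa2a, GPC3 in RWPE and MDAPCa2a, and GPC4 in RWPE. With so few reads there, such counts say little about these genes.

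The other MDAPCa2a members differed less between the surfaces than HPSE2 did, as a description of the contrast that chose it. Their log2 differences ran from -0.53 for SDC4 to 0.71 for GPC6. SDC4 held 68.1 and 47.4 CPM on ACP and 78.9 and 99.4 CPM on plastic. SDC1 held 247 and 357 CPM on ACP and 393 and 320 CPM on plastic. Libraries overlapped for SDC1 and did not for SDC4.

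**Figure D3:**
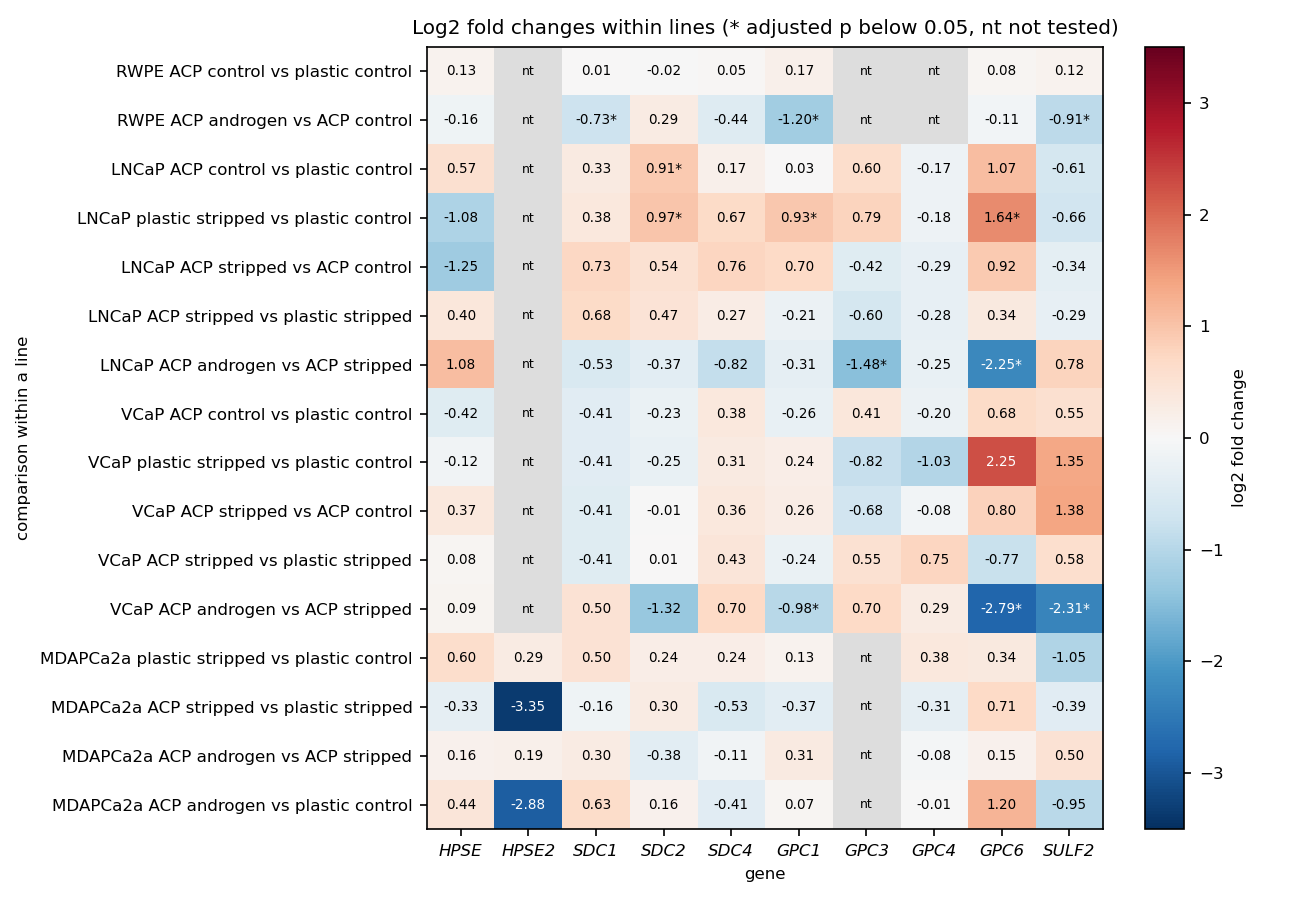
Log2 fold changes of the 10 genes (columns) in the 16 comparisons within a line (rows), with a colour scale from -3.5 to 3.5; asterisks mark adjusted p below 0.05, nt marks genes filtered out as low, and HPSE2 in MDAPCa2a and the stripped-medium surface row of that line carry no asterisk because that difference chose the gene. In the androgen rows the asterisks of RWPE, LNCaP and VCaP are all on lower values, while 5 of the 9 VCaP values are above 0.

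On plastic, LNCaP had higher levels of 3 members in stripped than in control medium. The plastic control libraries stand apart, so serum and whatever sets those libraries apart cannot be told apart here. SDC2, GPC1 and GPC6 rose among the 9 tested (9.45% of all genes called, 4.61% called higher). The median log2 fold change of the 9 was 0.67 and that of all genes tested -0.01. SDC2 went from 19.8 and 19.7 CPM in control to 39.7 and 35.2 CPM in stripped medium, a log2 fold change of 0.97 (SE 0.24, edgeR adjusted p = 0.0306). GPC1 went from 15.6 and 18.4 to 36.6 and 26.3 CPM (0.93, SE 0.22, adjusted p = 0.0234). GPC6 went from 0.634 and 0.640 to 1.69 and 2.19 CPM (1.64, SE 0.42, adjusted p = 0.0310). None of the 3 overlapped between the groups. In ACP control, without stripped serum, the group means were 34.5 CPM for SDC2, 16.2 CPM for GPC1 and 1.24 CPM for GPC6. SDC2 was thus above plastic control there too, by a log2 fold change of 0.91. Marker lists moved over the same groups: the luminal list summed to 7250 to 7356 CPM in control and 3428 to 3636 CPM in stripped medium, the hepatocyte list to 17.9 to 25.3 and 1.94 to 2.72 CPM, and the endothelial list to 27.2 to 30.1 and 14.7 to 15.3 CPM. Their part in the result was not tested. All 3 calls were lost in the fit of all 34 libraries (edgeR adjusted p = 0.189 for SDC2, 0.0702 for GPC1 and 0.0690 for GPC6). They were also lost without plastic control replicate 1, plastic control replicate 2 or plastic stripped replicate 1. Those of SDC2 and GPC6 were lost without plastic stripped replicate 2 as well. With 1 library left out the log2 fold changes ran from 0.92 to 1.01 for SDC2, 0.72 to 1.10 for GPC1 and 1.40 to 1.87 for GPC6.

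On ACP the same change of medium called 0 of 9 members in LNCaP by edgeR (5.37% of all genes called), with 6 at an unadjusted p under 0.05 and 3 called by DESeq2. SDC1 held 166 and 152 CPM in stripped and 67.1 and 123 CPM in control medium (log2 0.73, SE 0.23, edgeR adjusted p = 0.0951). SDC4 held 117 and 111 CPM against 43.0 and 90.4 CPM (0.76, SE 0.25, adjusted p = 0.111), and GPC1 25.9 and 27.0 CPM against 13.0 and 19.4 CPM (0.70, SE 0.22, adjusted p = 0.0972). As a description, the groups did not overlap for these 3 genes, and the control libraries lay further apart than the stripped ones. Without ACP control replicate 2, SDC1 (1.20, adjusted p = 0.0073), SDC4 (1.36, adjusted p = 0.00237) and GPC1 (0.98, adjusted p = 0.0491) passed, and these were the 3 that DESeq2 called. The surface-by-serum interaction in LNCaP called 0 of 9 members (0.307% of all genes), with 1 at an unadjusted p under 0.05 and 0 by DESeq2.

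VCaP and MDAPCa2a had no member called for stripped against control medium. In VCaP 0 of 9 passed on plastic (0.89% called) and 0 of 9 on ACP (0.82% called), and in MDAPCa2a 0 of 9 on plastic (1.58% called). At an unadjusted p under 0.05 edgeR had 2, 1 and 1 members in these comparisons, and DESeq2 called 1, 0 and 0. The single VCaP plastic stripped library held 52.1 CPM of GPC6, the highest value of the gene in the series, against 4.40 and 18.2 CPM in plastic control (log2 2.25, SE 0.65, edgeR adjusted p = 0.0981). GPC6 passed there by DESeq2 (2.23, adjusted p = 0.00725); the stripped arm has no replicate, so its spread is taken from the other VCaP groups. On ACP VCaP held 38.3 and 21.8 CPM of GPC6 in stripped and 12.3 and 22.6 CPM in control medium, which overlapped. The stripping difference called 0 of 10 members between VCaP and LNCaP on ACP (0.589% of all genes called, with 1 member at an unadjusted p under 0.05 and 0 by DESeq2) and 0 of 10 between MDAPCa2a and LNCaP on plastic (1.81% called, with 0 members by either measure). HPSE2 in MDAPCa2a stood at 68.1 and 94.1 CPM in stripped and 79.4 and 56.5 CPM in control medium on plastic.

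Androgen added to stripped medium on ACP was followed by lower GPC6 in both LNCaP and VCaP. In LNCaP GPC6 went from 1.94 and 2.84 CPM to 0.553 and 0.457 CPM, a log2 fold change of -2.25 (SE 0.44, edgeR adjusted p = 0.0127). In VCaP it went from 38.3 and 21.8 CPM to 5.06 and 3.64 CPM, a log2 fold change of -2.79 (SE 0.60, adjusted p = 0.0137). The libraries did not overlap in either line. In MDAPCa2a GPC6 stood at 11.8 and 21.0 CPM in stripped and 16.4 and 20.9 CPM in androgen medium (0.15, SE 0.27, adjusted p = 0.969). The androgen difference of MDAPCa2a exceeded that of VCaP by 2.97 (SE 0.63, edgeR adjusted p = 0.00475) and that of LNCaP by 2.42 (SE 0.70, adjusted p = 0.1). The comparison with VCaP was added after the data were seen, so its p-value is a description and no support. Its value was between 2.48 and 3.45 when each of its 8 libraries was left out in turn. The LNCaP call was lost without ACP stripped replicate 2 (-1.93, adjusted p = 0.102) or ACP androgen replicate 1 (-2.41, adjusted p = 0.0568), and the VCaP call without ACP stripped replicate 1 (-2.28, adjusted p = 0.0856), ACP androgen replicate 1 (-3.02, adjusted p = 0.0546) or ACP androgen replicate 2 (-2.57, adjusted p = 0.0972).

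In LNCaP 2 of 9 members fell with androgen (7.73% of all genes called, 3.96% called lower), GPC6 and GPC3. The median log2 fold change was -0.37 over the 9 and -0.01 over all genes tested. GPC3 went from 4.69 and 5.36 CPM to 1.00 and 2.64 CPM, a log2 fold change of -1.48 (SE 0.35, edgeR adjusted p = 0.0293). The groups did not overlap. The call was lost without ACP stripped replicate 1 (-1.58, adjusted p = 0.105), ACP stripped replicate 2 (-1.36, adjusted p = 0.151) or ACP androgen replicate 1 (-0.96, adjusted p = 0.117), and in the fit of all 34 libraries. SDC4 held 117 and 111 CPM without and 59.0 and 71.2 CPM with androgen (-0.82, SE 0.25, edgeR adjusted p = 0.0728), and passed by DESeq2 (-0.81, adjusted p = 0.0181) and with no filter on low counts (adjusted p = 0.000486). SDC2 held 52.7 and 48.8 CPM without and 26.9 and 52.5 CPM with androgen, and passed without ACP androgen replicate 2 (-0.91, adjusted p = 0.0103). Over the same groups the luminal list summed to 5615 to 6274 CPM without and 7764 to 7949 CPM with androgen, and the lymphoid list to 2.26 to 3.08 and 5.58 to 6.25 CPM, with CD3E at 0. Their part in the result was not tested.

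In VCaP 3 of 9 members fell with androgen (17.5% of all genes called, 8.8% called lower): GPC6, SULF2 and GPC1. The median log2 fold change was 0.09 over the 9 and -0.03 over all genes tested, and 6 of the 9 did not pass. SULF2 went from 4.24 and 3.11 CPM to 0.952 and 0.526 CPM, a log2 fold change of -2.31 (SE 0.50, edgeR adjusted p = 0.0141). GPC1 went from 32.2 and 20.5 CPM to 16.2 and 10.5 CPM (-0.98, SE 0.29, adjusted p = 0.0431). Neither gene's groups overlapped, and both calls were lost without ACP stripped replicate 1 (SULF2 adjusted p = 0.078, GPC1 adjusted p = 0.266) or ACP androgen replicate 2 (SULF2 adjusted p = 0.107, GPC1 adjusted p = 0.243). SDC2 held 102 and 48.1 CPM without and 22.0 and 37.9 CPM with androgen (-1.32, SE 0.47, adjusted p = 0.0786), and passed without ACP stripped replicate 2 (-1.77, adjusted p = 0.0473), by DESeq2 (-1.29, adjusted p = 0.0140), in the fit of all 34 libraries (adjusted p = 0.0172) and with no filter on low counts (adjusted p = 0.00254). Markers of other cell types moved over the same groups: the fibroblast list summed to 41.5 to 163 CPM without and 7.75 to 8.63 CPM with androgen, the hepatocyte list to 340 to 395 and 62.7 to 151 CPM, and the endothelial list to 0.829 to 1.60 and 12.4 CPM. Reads of THY1, CDH5, FGA and FGG were at 0 in both groups, and the part of these lists in the results was not tested.

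MDAPCa2a had 0 of 9 members called for androgen on ACP (0% of all genes called by edgeR, with 236 genes at an unadjusted p under 0.05 and 3 called by DESeq2, and 0 members by either measure). HPSE2 was at 8.37 and 9.14 CPM with and 5.09 and 9.93 CPM without androgen, which overlapped.

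Between VCaP and LNCaP the androgen differences of 2 of 10 members were unequal (10.9% of all genes called). GPC3 differed by 2.15 (SE 0.67, edgeR adjusted p = 0.0401): it fell in LNCaP and stood at 2.12 and 4.38 CPM with and 2.00 and 2.01 CPM without androgen in VCaP. SULF2 differed by -3.09 (SE 0.84, adjusted p = 0.0185): it fell in VCaP and stood at 0.380 and 1.18 CPM with and 0.679 and 0.210 CPM without androgen in LNCaP. GPC6 did not differ past the threshold between these lines (-0.55, SE 0.73, 10 members tested). Between MDAPCa2a and VCaP 1 of 10 members differed, GPC6 (7.86% called), and between MDAPCa2a and LNCaP 0 of 10 by edgeR (1.12% called; 1 at an unadjusted p under 0.05 and 1 by DESeq2, GPC6). The LNCaP and VCaP differences of GPC3 and SULF2 share no libraries between lines. GPC3 lost its call without any of 6 of the 8 libraries and SULF2 without any of 4, with adjusted p of up to 0.237 and 0.259.

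**Figure D4:**
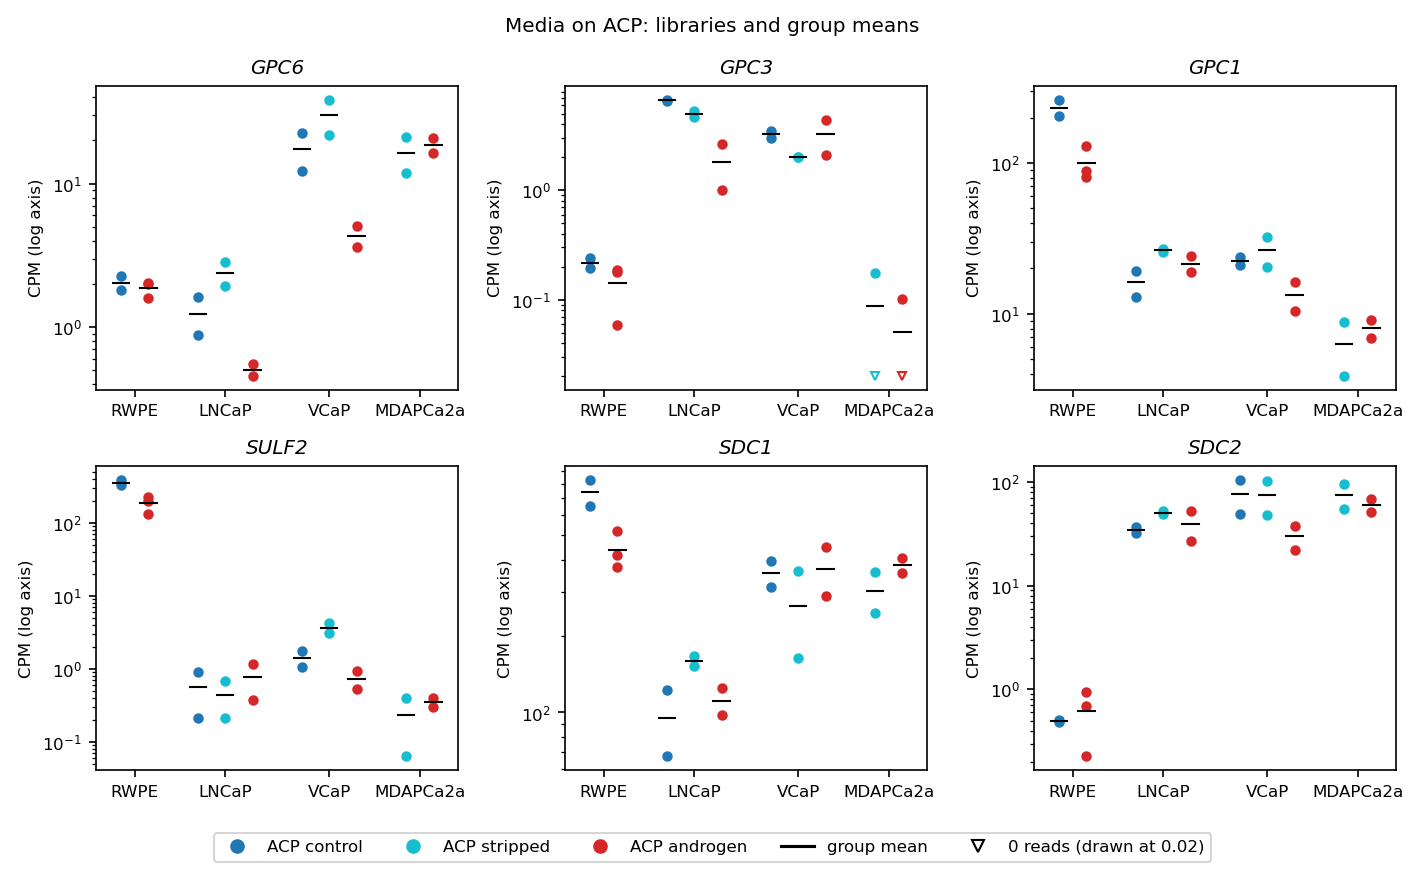
CPM (log axes) of GPC6, GPC3, GPC1, SULF2, SDC1 and SDC2 on ACP in control, stripped and androgen medium, by line; points are libraries, bars group means and open triangles drawn at 0.02 libraries with 0 reads. GPC6 is lower with androgen in LNCaP and VCaP and not in MDAPCa2a, and GPC1, SULF2 and SDC1 are lower with androgen medium in RWPE.

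RWPE in androgen medium had lower SDC1, GPC1 and SULF2, the 3 members called of 7 tested (19.1% of all genes called, 8.05% called lower). The median log2 fold change was -0.44 over the 7 and -0.02 over all genes tested. GPC1 went from 262 and 203 CPM in ACP control to 81.0, 129 and 88.0 CPM in ACP androgen, a log2 fold change of -1.20 (SE 0.22, edgeR adjusted p = 0.0170). SULF2 went from 383 and 325 CPM to 132, 228 and 197 CPM (-0.91, SE 0.22, adjusted p = 0.0241). SDC1 went from 825 and 651 CPM to 375, 519 and 419 CPM (-0.73, SE 0.19, adjusted p = 0.0294). The groups did not overlap for these genes, nor for SDC4, at 785 and 733 CPM against 428, 706 and 517 CPM (-0.44, SE 0.22, adjusted p = 0.178). RWPE has no stripped group, so base medium, serum and androgen cannot be told apart here. The basal marker list moved over the same groups, from sums of 15945 to 19935 CPM in control to 4120 to 13466 CPM in androgen medium, and its part in the result was not tested.

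Each of these RWPE calls was lost without ACP control replicate 1 (adjusted p = 0.285 for SDC1 and 0.275 for GPC1 and SULF2) or ACP control replicate 2 (adjusted p = 0.0913 to 0.104), and that of SDC1 also without ACP androgen replicate 1 (adjusted p = 0.0714). In the fit of all 34 libraries GPC1 alone kept its call. The change of GPC1 between androgen and control medium on ACP was 1.64 (SE 0.39, edgeR adjusted p = 0.00572) higher in LNCaP than in RWPE, 1 of 10 members called where 18.6% of all genes were. That comparison was added after the data were seen, so its p-value is a description and no support. The GPC1 call was lost without LNCaP ACP control replicate 1 (1.38). Between VCaP and RWPE edgeR called 0 of 10 members (8.6% called), with 3 at an unadjusted p under 0.05 and 1 called by DESeq2, GPC6.

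The machinery that builds and breaks heparan sulfate was followed in 64 further genes of 5 lists. Whether their calls hold when a library is left out is not given here. In MDAPCa2a, 0 of the 48 tested passed by edgeR in any of its 4 comparisons, where 0% to 1.58% of all genes were called. Of the 48, 1 to 13 were at an unadjusted p under 0.05 and 0 to 3 were called by DESeq2. In RWPE 8 of 53 fell with androgen medium and 0 rose, where 19.1% of all genes were called and 8.05% were called lower, with a median log2 fold change of -0.25 over the 53, among them XYLT1, which starts the chain on the core protein (-1.75, SE 0.39), NDST1, which begins its sulfation (-0.95, SE 0.24), COL18A1, a basement membrane core protein (-1.24, SE 0.27), and SDCBP2, a relative of the syndecan-binding protein syntenin (-1.52, SE 0.45). The RWPE surface comparison had 3 of 53 lower and 0 higher, near the 4.16% of all genes called, including SULF1, the second extracellular sulfatase (-0.88, SE 0.20), and the syndecan SDC3 (-1.17, SE 0.28).

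In LNCaP the androgen comparison had 3 of 51 higher and 1 lower, near the 7.73% of all genes called. The 3 were lysosomal degradation genes of a list of 8, led by the sulfatase ARSG (1.37, SE 0.22, edgeR adjusted p = 0.00523), and the 1 was the glypican GPC2 (-1.23, SE 0.28). ARSG was lower in stripped than in control medium on plastic (-1.95, SE 0.23) and on ACP (-1.20, SE 0.22). It was thus low in both stripped groups and higher with androgen. Stripped against control medium on ACP had 2 of 51 higher and 1 lower, where 5.37% of all genes were called. The 2 were XYLT1 (3.21, SE 0.83) and SDCBP2 (3.49, SE 0.85). On plastic it had 1 of 51 higher and 3 lower, where 9.45% of all genes were called. The 1 was EXTL1, a relative of the chain polymerases (1.85, SE 0.44). ACP against plastic control had 1 of 51 higher, the 3-O-sulfotransferase HS3ST3B1 (1.76, SE 0.37), and 5 lower, where 12.6% of all genes were called. The 5 included the membrane protease MMP14 (-2.74, SE 0.57), the hyaluronan receptor CD44 (-2.65, SE 0.76) and the iduronidase IDUA (-1.09, SE 0.30). MMP14 and CD44 were lower by similar sizes in plastic stripped (-2.39 and -3.20), so both were high in the plastic control libraries, which stand apart. In stripped medium ACP was above plastic for SDCBP2 (4.33, SE 0.93) and the sulfate donor enzyme PAPSS2 (2.34, SE 0.59), and below it for the core protein AGRN (-0.77, SE 0.19). These were the 2 higher and 1 lower of 51, where 6.12% of all genes were called.

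VCaP had 6 of 55 higher and 7 lower with androgen, in 4 of the 5 lists, where 17.5% of all genes were called, with a median of -0.05. PAPSS2 rose by 1.89 (SE 0.35) while PAPSS1, its partner in making the sulfate donor, changed by -0.78 (SE 0.18). Among the 3-O-sulfotransferases HS3ST4 rose by 2.01 (SE 0.56) and HS3ST3B1 changed by -4.29 (SE 0.79). Serglycin (SRGN), an intracellular granule core protein that mostly carries other chains, rose by 4.64 (SE 1.16), the syndecan-binding adaptor GIPC1 by 1.17 (SE 0.20), and CD44 changed by -1.71 (SE 0.39). The perlecan gene HSPG2 was lower in stripped than in control medium on plastic (-2.68, SE 0.35) and on ACP (-1.82, SE 0.26). It was the 1 gene of 55 called in each, where 0.89% and 0.82% of all genes were called. The plastic stripped arm is a single library, whose spread is taken from the other groups.

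Profiles over the 17 groups were compared by Pearson r of group-mean log2 CPM among 15549 genes. PPP1R1B (r = 0.96), PHF8 (0.96), COL4A3BP (0.95), PLA2G3 (0.95) and OSGIN1 (0.95) were most like HPSE2. The group means of HPSE2 spanned 10.70 on the log2 scale, those of PPP1R1B 10.66, and those of PHF8 2.88, so a close r does not mean a change of the same size. The nearest profile was STOM for HPSE (0.97), TRIP6 for SULF2 (0.99), MAPK13 for SDC1 (0.96), PRKAR2B for SDC2 (0.99), EFHD2 for SDC4 (0.99), AHNAK2 for GPC1 (0.98), ADAM12 for GPC3 (0.98), LAMB2 for GPC4 (0.98) and CPAMD8 for GPC6 (0.96). Groups of 1 line share their line, so these values mostly follow the order of the 4 lines and describe likeness alone.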

How the data were processed

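Per the submitters' processing notes, reads were processed with STAR and HTSeq on hg19, with versions not given in the sources used here. The authors deposited 1 table of gene counts, whole numbers with no normalization. The 10 members, the 5 pathway lists and the marker lists were chosen with earlier results of these data known.

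Counts were tested with edgeR 4.0.16 (R 4.3.3): TMM library sizes, genes kept by filterByExpr (minimum count 10), quasi-likelihood F tests and Benjamini-Hochberg adjustment over all genes tested. Comparisons within a line used the libraries of that line, and comparisons between lines or of effects used all 34. The differences of an effect between lines, other than androgen in VCaP or MDAPCa2a against LNCaP and stripping on ACP in VCaP against LNCaP, were added after the data were seen. The pipeline was tested on simulated data. Alternatives were DESeq2 1.42.0, other size factors, no filter, a replicate block, the fit of all libraries and leaving out each library. Named genes were the members, the largest called rise and fall of each pathway list in each comparison, and the nearest profiles. Residual degrees of freedom were 4 or 5 within a line and 17 over all libraries, which limits precision. Counts of genes with antisense or overlapping partners are uncertain where the counting was not stranded.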

Additional observations from a re-analysis of the deposited data

Results flagged for a closer look

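Differences of an effect between lines that passed their own test are listed here as values. Those of GPC6 and GPC1 come from comparisons added after the data were seen, so their p-values are no support. The androgen difference of GPC3 on ACP was 2.15 (SE 0.67, edgeR adjusted p = 0.0401) higher in VCaP than in LNCaP on the log2 scale, and that of SULF2 was -3.09 (SE 0.84, adjusted p = 0.0185). The androgen difference of GPC6 was 2.97 (SE 0.63, adjusted p = 0.00475) higher in MDAPCa2a than in VCaP. The difference of GPC1 between androgen and control medium on ACP was 1.64 (SE 0.39, adjusted p = 0.00572) higher in LNCaP than in RWPE. In RWPE base medium changed with serum and androgen. The calls of GPC3, SULF2 and GPC1 were each lost when some single libraries were left out, as given above. In LNCaP SULF2 rested on few reads, 27 without and 47 with androgen, summed over the libraries of each group.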

How the results depend on the processing

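No called result reversed direction under the alternatives that were run. Changes of sign in results that were not called were not counted. Of the 39 counts of members called, other size factors moved 0 by more than 1.5 times, DESeq2 7, no filter 8 and the fit of all 34 libraries 5 of the 17 it applies to. The fit of all libraries left 1 member for RWPE androgen against control, 0 for LNCaP ACP against plastic control and for LNCaP plastic stripped against control, and 1 for LNCaP androgen. Without the filter 3 members were called for LNCaP stripped against control on ACP, 1 for LNCaP ACP against plastic in stripped medium, 4 for LNCaP androgen, 1 for VCaP plastic stripped against control, 2 for MDAPCa2a ACP androgen against plastic control, 1 and 2 for the androgen difference of MDAPCa2a from LNCaP and from VCaP, and 2 for the androgen medium difference of VCaP from RWPE. DESeq2 gave 3, 1, 1, 2, 1, 2 and 1 for the same comparisons without LNCaP androgen, and the fit of all libraries 1 for VCaP plastic stripped. Over all genes DESeq2 called more than edgeR by over 1.5 times in these comparisons within a line: 1401 against 595 for the RWPE surface, 1331 against 787 for LNCaP stripping on ACP, 1775 against 897 for the LNCaP surface in stripped medium, 1759 against 1133 for LNCaP androgen, 40 against 7 for the VCaP surface in control medium and 3 against 0 in stripped medium, 1169 against 139 and 860 against 128 for VCaP stripping on plastic and ACP, and, in MDAPCa2a, 616 against 215 for stripping, 213 against 1 for the surface, 3 against 0 for androgen and 576 against 64 for ACP androgen against plastic control. The cause was not tested.

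Leaving out 1 library at a time gave 0 to 3 members for RWPE androgen, 0 to 2 for LNCaP ACP against plastic control, 0 to 1 for LNCaP plastic stripped, 0 to 3 for LNCaP ACP stripped against control, 0 to 3 for LNCaP androgen, 0 to 1 for VCaP plastic stripped, 0 to 4 for VCaP androgen, 0 to 1 for MDAPCa2a ACP against plastic in stripped medium (chosen for HPSE2) and 0 to 1 for MDAPCa2a ACP androgen against plastic control. For differences of effects it gave 0 to 2 for androgen in VCaP and LNCaP, 0 to 1 for MDAPCa2a and LNCaP, 1 to 2 for MDAPCa2a and VCaP, 0 to 1 for stripping on ACP in VCaP and LNCaP, 0 to 3 for androgen medium in LNCaP and RWPE and 0 to 1 in VCaP and RWPE. A group left with 1 library is assumed to vary like the other groups. The single VCaP plastic stripped library could not be left out.

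Correlations of same-numbered deviations ran from -0.248 to 0.252 over the lines. They were over 0.1 for 6 of 20 pairs in LNCaP, 4 of 12 in VCaP, 2 of 12 in MDAPCa2a and 0 of 6 in RWPE. Each line also had negative values, so whether replicate numbers pair the libraries cannot be told from them. With the replicate number as a block the count for androgen in VCaP and LNCaP fell to 1 (SULF2), 93 members were called over all comparisons against 104, and the count was the same in 31 of 39.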
